A study of Homo sapiens with 6 samples.

Results

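ODC1 and the enzymes and regulators of polyamine metabolism were followed in RBE, a cultured human line from a cancer of the bile ducts within the liver (intrahepatic cholangiocarcinoma). The set holds 10 of the 16200 genes in the deposited table, chosen by role. ODC1, AMD1, SRM and SMS make polyamines, OAZ1, OAZ2 and AZIN1 control ODC1 protein, and SAT1, SMOX and PAOX break polyamines down. ODC1 itself was picked because its estimated counts were evenly lower in the sgKCNQ3 libraries, so its difference between the groups is described here without a test. The other 9 genes were taken for their roles, but with earlier results of these data known, a limit on their p-values.

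Poly(A)-selected RNA was sequenced in 6 libraries, 3 labelled sgKCNQ3 and 3 labelled NC, all from the same line. The first label is the usual short form for a guide RNA against KCNQ3, a voltage-gated potassium channel subunit. The NC libraries are the set they were compared with, and no other agent is named for either group. The sources used here do not give whether the guide worked with a nuclease or a repressor, or whether the cells were 1 clone. Separate cultures for each library are not stated in the labels, and the p-values therefore refer to the spread among these libraries, which may be technical.

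Polyamines (putrescine, spermidine and spermine) are small, positively charged molecules that bind RNA and DNA and are needed for growth. ODC1, ornithine decarboxylase, makes putrescine and is the classic rate-limiting enzyme of the pathway, often raised in tumours and in proliferating epithelium. Antizymes carry ODC1 to the proteasome and are themselves made when polyamines are plentiful. Much of the control of the pathway acts on translation and protein stability, which RNA abundance does not measure.

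Several short stretches of these genes are shown, some from promoters and some from translational elements. They were picked because the results below return to ODC1, its MYC-type promoter elements and its antizymes. The promoter stretches come from RefSeq in build GRCh38.p14. The first ODC1 stretch, chr2:10448338-10448367 on the minus strand, holds a TATA element (TATAA in capitals) at position -32 from the first RefSeq start. The second, chr2:10447998-10448051 on the minus strand, holds a pair of E-boxes (CACGTG in capitals), the letters that MYC and MAX dimers are known to bind, at positions -29 and 5 from the second RefSeq start. It lies in intron 1 of the ODC1 transcript in GENCODE that begins farthest upstream. The TATA stretch lies in exon 1 of that same transcript, after its start. The SRM stretch, chr1:11060182-11060227 on the minus strand, holds 1 E-box at position -199.
ODC1 TATA element: gccggtgcTATAAgtagggagcggcgtgcc
ODC1 E-boxes: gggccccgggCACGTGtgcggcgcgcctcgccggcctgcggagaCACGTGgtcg
SRM E-box: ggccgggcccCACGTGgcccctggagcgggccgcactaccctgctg

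Promoter windows (250 bases before to 50 after a start) were found for 7 of the 10 members and searched on both strands for CACGTG, for GGGCGG, the core letters of an SP1-type site, and for TATAA. Matches of different motifs can overlap only at their ends. CACGTG was in the second ODC1 window and the SRM window and not in those searched for AMD1, OAZ1, OAZ2, SMS or SAT1. Of 35116 windows of the same length over all genes, 7.26% held CACGTG, 45.0% held GGGCGG and 20.4% held TATAA. The first ODC1 window held GGGCGG 6 times and the second held it 4 times, SRM had 6 matches, and SAT1 had none. A match describes the letters and not a bound site.

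The translational elements were read from the GENCODE transcripts (release 29, GRCh38) for the antizymes and from the RefSeq window for AMD1. OAZ1 and OAZ2 are made only when the ribosome slips forward by a base at a stop codon, a step that polyamines are known to promote. The stop codon passed over is in capitals in chr19:2271431-2271457 (plus strand, OAZ1) and chr15:64691501-64691527 (minus strand, OAZ2). GENCODE leaves out a single coding base at that codon, 2271443 in OAZ1 and 64691515 in OAZ2. The stretches were identical at 26 of 27 bases. AMD1 carries a short reading frame ahead of its own, chr6:110874796-110874816 on the plus strand, known to hold back AMD1 translation when polyamines are high; its start and stop codons are in capitals.
OAZ1 frameshift site: cggtggtgctccTGAtgcccctcaccc
OAZ2 frameshift site: ctgtggtgctccTGAtgcccctcaccc
AMD1 upstream frame: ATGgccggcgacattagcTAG

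Libraries were of nearly equal depth, with 15685137 to 15722455 estimated counts in sgKCNQ3 and 15601283 to 16089500 in NC. KCNQ3 itself had 222, 206 and 191 counts in sgKCNQ3 libraries, against 256, 257 and 252 in NC libraries. Its log2 fold change was -0.33 (SE 0.0841, adjusted p = 0.00446 by edgeR's quasi-likelihood test). On log2(TPM + 1), where the added 1 shrinks differences at such low levels, it was -0.15 and did not pass. Deposited TPM of KCNQ3 averaged 1.97 in sgKCNQ3 and 2.30 in NC, without overlap of the groups. Biliary epithelial markers (KRT7, KRT19, KRT8, KRT18, EPCAM, SOX9 and CD24) were all tested, and their summed level was 4717 to 4828 TPM in sgKCNQ3 and 4054 to 4142 TPM in NC. On counts, KRT8, KRT18, SOX9 and CD24 were called higher in sgKCNQ3. KRT7, KRT19 and EPCAM were not called, with log2 fold changes of 0.04, 0.12 and 0.10. Of the other cell types, only TF among 5 hepatocyte markers and COL1A1 among 3 fibroblast markers were tested. Summed levels were 0.6 to 2.6 TPM in sgKCNQ3 and 0.49 to 1.52 TPM in NC for hepatocyte markers, and 2.03 to 2.04 TPM in sgKCNQ3 and 1.55 to 2.02 TPM in NC for fibroblast markers. The leukocyte markers PTPRC and CD3E had at most 2 counts in any library and the endothelial markers PECAM1 and CDH5 at most 8. The higher biliary marker sum went with the groups, and its part in the polyamine results was not tested. In bulk RNA, fewer cells expressing a gene and less of its RNA per cell cannot be told apart. Over the 12565 genes that passed the filter on low counts, 29.1% were called at an adjusted p under 0.05, 14.0% higher and 15.1% lower in sgKCNQ3, and in 41.7% the scaled counts of the groups did not overlap.

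ODC1 (Entrez 4953, chr2:10439968-10448504, minus strand, GRCh38, GENCODE release 29) was lower in every sgKCNQ3 library than in any NC library. It had 12660, 13070 and 12259 estimated counts in the sgKCNQ3 libraries and 17427, 17318 and 17854 in the NC libraries. As CPM (counts scaled to a common library total with TMM factors), these were 795.5, 828.3 and 767.2 in sgKCNQ3 and 1129.8, 1093.7 and 1141.3 in NC. The libraries lay close together within each group, with a coefficient of variation of 3.84% in sgKCNQ3 and 2.21% in NC, and the gap between the groups was wider than the range within either. Mean CPM was 797 ± 30.6 in sgKCNQ3 and 1122 ± 24.8 in NC (SD, n = 3 each), a level 28.9% lower and a log2 fold change of -0.49 (SE 0.0364). These counts chose the gene, so they carry no p-value.

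The size of the ODC1 difference can be placed among other genes as a description. A log2 fold change as low as that of ODC1 or lower was seen in 212 tested genes, 1.69% of all. Of the 85 genes with a mean level at or above that of ODC1 on the log2 CPM scale, ODC1 alone reached such a fold change. Its drop of 324.6 CPM was the 6th largest decrease in CPM over all tested genes. As a share of all counts, ODC1 held 0.0807%, 0.0831% and 0.0782% in sgKCNQ3 libraries, against 0.112%, 0.108% and 0.113% in NC libraries.

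**Figure D1:**
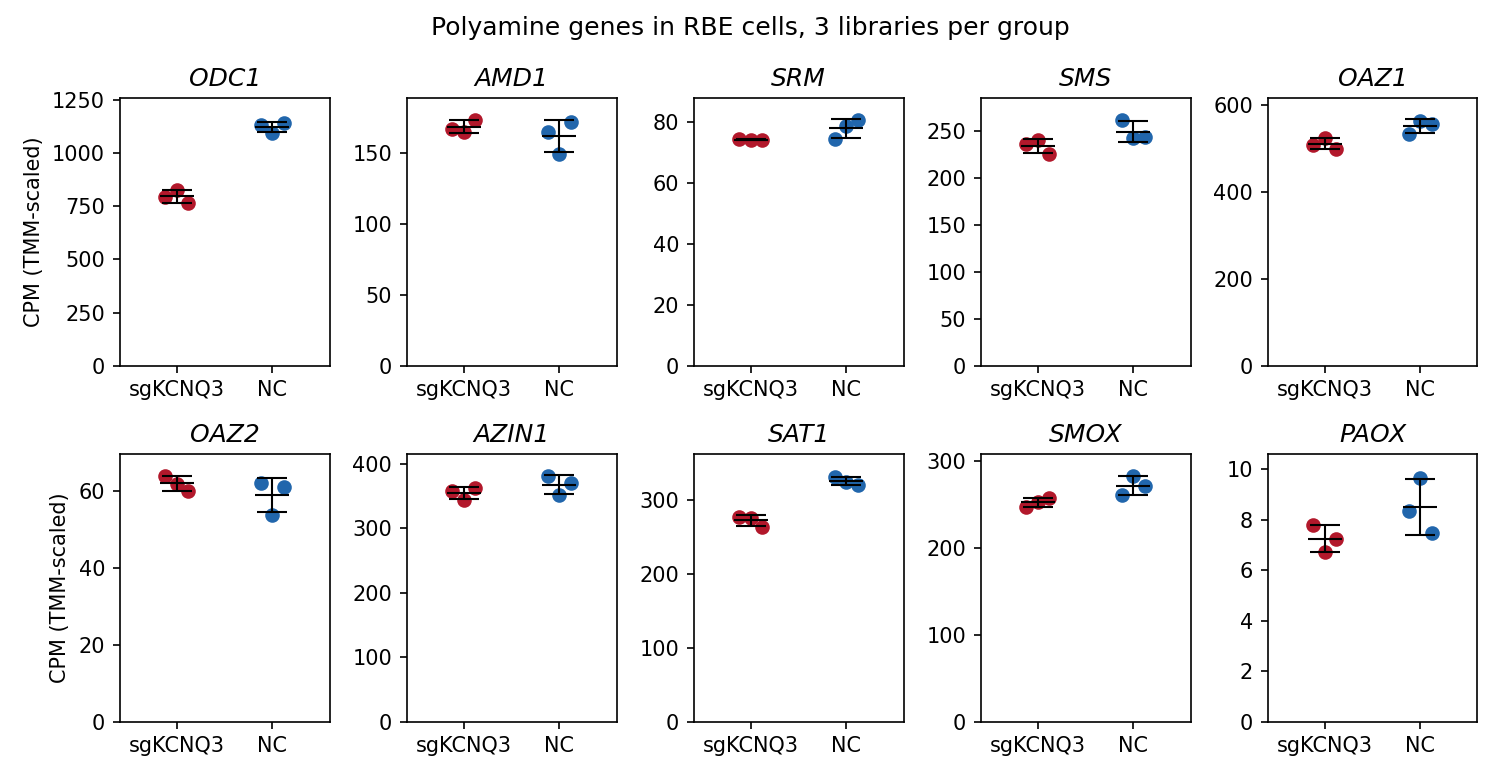
Scaled counts (CPM) of the 10 polyamine genes in the 3 sgKCNQ3 and 3 NC libraries, 1 panel per gene with its own axis from 0; points are libraries, and bars give the mean and SD (n = 3). The ODC1 points sit at 767.2 to 828.3 in sgKCNQ3 and 1093.7 to 1141.3 in NC, and SAT1 is the next member whose groups stand clearly apart.

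None of the other biosynthetic enzymes, AMD1, SRM and SMS, passed the test. AMD1 (chr6:110874770-110895713), S-adenosylmethionine decarboxylase, which makes the aminopropyl donor for spermidine and spermine, had 166.6, 164.6 and 173.4 CPM in sgKCNQ3 and 164.5, 149.4 and 171.7 CPM in NC. The groups overlapped, and the log2 fold change was 0.06 (SE 0.0455, adjusted p = 0.381 by edgeR); without NC replicate 2, its lowest NC library, it was 0.001. SRM (chr1:11054584-11060024), spermidine synthase, had 74.2, 74.0 and 73.8 CPM in sgKCNQ3 and 74.4, 78.6 and 80.4 CPM in NC. All sgKCNQ3 values lay below the NC values by a narrow margin, and the log2 fold change was -0.07 (SE 0.0463, adjusted p = 0.252 by edgeR). SMS (chrX:21940573-21994835), spermine synthase, had 236.0, 239.6 and 225.3 CPM in sgKCNQ3 and 261.9, 242.3 and 242.9 CPM in NC. The groups again did not overlap, but the log2 fold change of -0.09 (SE 0.0403) did not pass (adjusted p = 0.0888 by edgeR). Without sgKCNQ3 replicate 2 the SMS value was -0.10 and was called at an adjusted p of 0.0491, the lowest over 16 alternative settings, in which it ranged up to 0.907.

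SRM shares with ODC1 a CACGTG match in the window searched, printed above, and the log2 fold changes of the pair were -0.07 and -0.49. The SRM direction depended on the scale, with values of 0.02 on log2(TPM + 1) and 0.05 once the trend of each library with transcript length and GC content was removed. The ratio of ODC1 to AMD1 is given as a description only, since ODC1 was picked for its lower counts and any ratio over it carries that choice. In deposited TPM (the authors' level per transcript length, scaled to 1 total in every library), ODC1 stood 6.84, 7.20 and 6.34 times above AMD1 in sgKCNQ3 libraries, against 9.86, 10.49 and 9.54 times in NC libraries.

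Among the regulators of ODC1 protein, OAZ1 fell slightly, and OAZ2 and AZIN1 did not pass the test. OAZ1 (chr19:2269509-2273490), the main antizyme, which binds ODC1 and sends it to the proteasome, had 508.3, 524.5 and 498.9 CPM in sgKCNQ3 and 532.7, 563.0 and 555.7 CPM in NC. The groups did not overlap, and the mean was 7.25% lower in sgKCNQ3 (log2 fold change -0.11, SE 0.0363, adjusted p = 0.0261 by edgeR). OAZ1 was called under 8 of 16 alternatives, with adjusted p from 0.00603 to 0.57. It was lost without NC replicate 2 (-0.09), NC replicate 3 (-0.10), sgKCNQ3 replicate 1 (-0.10) or sgKCNQ3 replicate 3 (-0.09), and with upper-quartile (-0.09) or library-size scaling of the counts (-0.07). On log2(TPM + 1) and after removal of the length and GC trend it was also lost, at -0.03 in both.

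OAZ2 (chr15:64687573-64703281), a second antizyme, had 63.8, 61.8 and 60.0 CPM in sgKCNQ3 and 61.8, 53.7 and 60.9 CPM in NC, with a log2 fold change of 0.07 (SE 0.0548, adjusted p = 0.339 by edgeR); without NC replicate 2 it was 0.011. AZIN1 (chr8:102826357-102893864), the antizyme inhibitor, an ODC1-like protein without enzyme activity that frees ODC1 from antizyme, had 357.3, 344.3 and 362.0 CPM in sgKCNQ3 and 380.4, 351.1 and 369.9 CPM in NC. Both genes had overlapping groups. The AZIN1 log2 fold change was -0.05 (SE 0.0383, adjusted p = 0.343 by edgeR), and its direction turned to 0.04 on log2(TPM + 1). After removal of the length and GC trend it was -0.10 and was called at an adjusted p of 0.0335, the lowest over the alternatives, which reached 0.823.

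The ratio of ODC1 to its antizyme is likewise a description that follows from how ODC1 was picked. In TPM, ODC1 per OAZ1 was 0.641, 0.645 and 0.628 in sgKCNQ3 libraries, against 0.855, 0.791 and 0.835 in NC libraries. The lowest NC ratio was well above the highest sgKCNQ3 ratio, with means of 0.638 ± 0.00878 in sgKCNQ3 and 0.827 ± 0.0324 in NC (SD, n = 3 each). AZIN1 relative to OAZ1 and OAZ2 together was 0.147 ± 0.00725 in sgKCNQ3 and 0.141 ± 0.00781 in NC, and the groups overlapped.

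Of the catabolic genes, SAT1 fell, SMOX fell slightly and PAOX did not pass. SAT1 (Entrez 6303, chrX:23783173-23786226), spermidine/spermine acetyltransferase, which marks polyamines for export or oxidation and is known to be induced by them, had 4411, 4348 and 4205 counts in sgKCNQ3 and 5109, 5133 and 5001 counts in NC. As CPM these were 277.2, 275.6 and 263.1 in sgKCNQ3 and 331.2, 324.2 and 319.7 in NC. The groups were well apart, with all sgKCNQ3 values under the lowest NC value. The mean was 272 ± 7.67 CPM in sgKCNQ3 and 325 ± 5.82 CPM in NC (SD, n = 3 each), 16.3% lower, with a log2 fold change of -0.26 (SE 0.0371, adjusted p = 1.18e-05 by edgeR). SAT1 was called in all 16 alternatives, between -0.27 and -0.19.

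SMOX (chr20:4120980-4187747), spermine oxidase, which turns spermine into spermidine with release of hydrogen peroxide, had 247.4, 252.4 and 257.2 CPM in sgKCNQ3 and 260.8, 282.9 and 270.6 CPM in NC. The groups were separated by a small gap, the mean was 7.05% lower in sgKCNQ3, and the log2 fold change was -0.11 (SE 0.0387, adjusted p = 0.0419 by edgeR). Only 4 of 16 alternatives kept the call, with adjusted p from 0.026 to 0.826. Leaving out any library other than NC replicate 1 ended it (-0.115 to -0.075), and on log2(TPM + 1) the value was -0.02. PAOX (chr10:133379234-133391694), the peroxisomal oxidase of acetylated polyamines, was the least abundant member, with 124, 106 and 116 counts in sgKCNQ3 and 129, 153 and 117 counts in NC. Its groups overlapped, and at this depth its log2 fold change of -0.23 had an SE of 0.115 (adjusted p = 0.14 by edgeR). Without NC replicate 2 the PAOX value was -0.126, and it was -0.121 both on log2(TPM + 1) and after removal of the length and GC trend.

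Over the 9 members other than ODC1, 3 were called lower (SAT1, OAZ1 and SMOX), none higher and 6 in neither direction, and all 9 passed the filter on low counts. At an unadjusted p under 0.05, edgeR had 4 lower and 0 higher, but the share of all genes at that threshold was not worked out. It is at least the 29.1% called after adjustment, so no weight is put on this count. DESeq2 called 2 lower and 0 higher after adjustment, beside 1211 lower and 1111 higher over all genes. By edgeR after adjustment, 15.1% of all tested genes were called lower and 14.0% higher. The median log2 fold change of the 9 was -0.09, against -0.01 over all tested genes. The count fell to 1, SAT1, with upper-quartile or library-size scaling, on log2(TPM + 1), and without NC replicate 2, NC replicate 3, sgKCNQ3 replicate 1 or sgKCNQ3 replicate 3. CPM of the groups did not overlap for 5 of the 9, which compares with 41.7% of all genes. On deposited TPM they did not overlap for SAT1, lower, and OAZ2, higher, in sgKCNQ3, and 42.5% of all genes had no overlap on that scale.

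**Figure D2:**
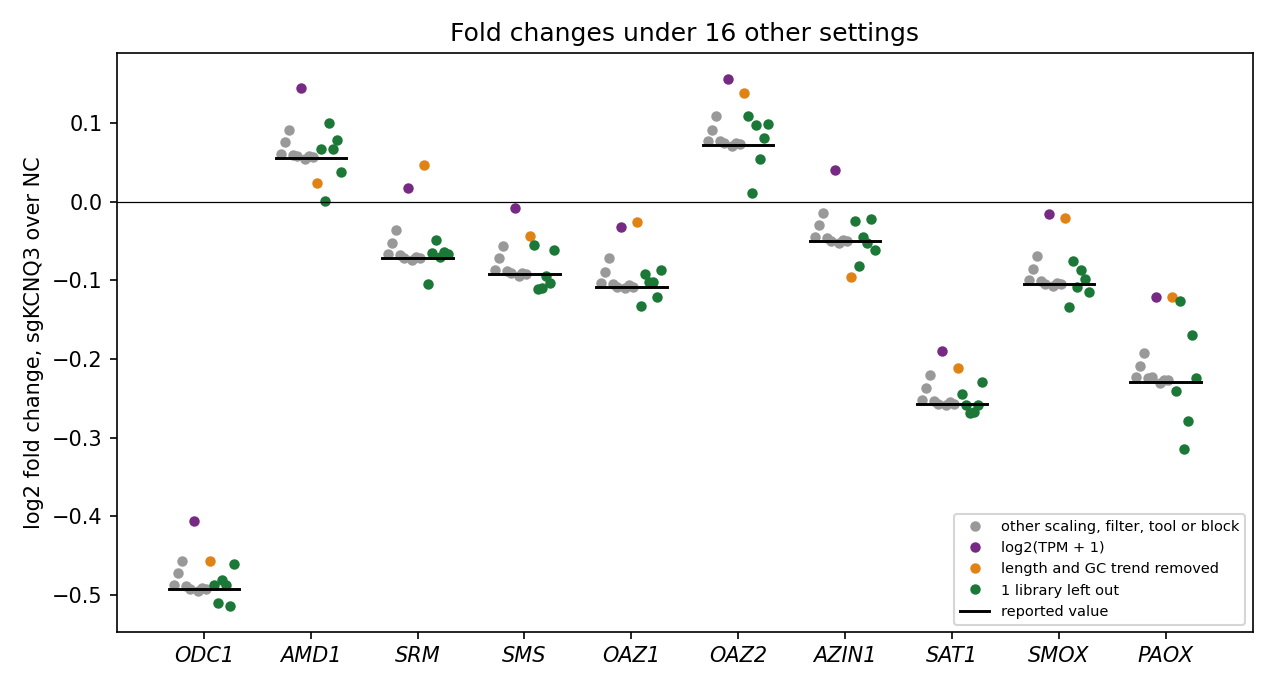
Log2 fold change (sgKCNQ3 over NC) of each polyamine gene as reported (black line) and under 16 other settings (points, coloured by kind of setting). ODC1, which was picked for its evenly lower counts, stayed between -0.51 and -0.41, and SAT1 between -0.27 and -0.19. AZIN1 and SRM crossed 0 on log2(TPM + 1), and SRM also after removal of the length and GC trend.

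The order of the levels per length was the same in both groups: OAZ1, ODC1, SAT1, SMS, SMOX, AZIN1, SRM, AMD1, OAZ2 and PAOX. Within either group the libraries of neighbouring genes in that order did not overlap. OAZ1 averaged 909.9 ± 7.11 TPM in sgKCNQ3 and 930.8 ± 25.1 TPM in NC (SD, n = 3 each) and ranked 137 in sgKCNQ3 and 134 in NC among the 12565 tested genes. ODC1 had 583.0, 591.5 and 567.0 TPM in sgKCNQ3 libraries and 770.9, 748.9 and 788.3 TPM in NC libraries, which placed it at rank 216 in sgKCNQ3 and 158 in NC. Its TPM levels in sgKCNQ3 cells lay in the range that SAT1 reached in NC cells (577.5 to 593.5 TPM) or just below it. SAT1 had 523.5, 510.0 and 499.3 TPM in sgKCNQ3. The mid-range members SMS, SMOX, AZIN1 and SRM averaged 122 to 263 TPM in sgKCNQ3 and 121 to 265 TPM in NC. AMD1 averaged 85.6 ± 3.68 TPM in sgKCNQ3 and 77.4 ± 5.68 TPM in NC, OAZ2 59.9 ± 1.91 TPM in sgKCNQ3 and 53.7 ± 4.14 TPM in NC, and PAOX 7.61 ± 0.572 TPM in sgKCNQ3 and 8.38 ± 0.964 TPM in NC.

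**Figure D3:**
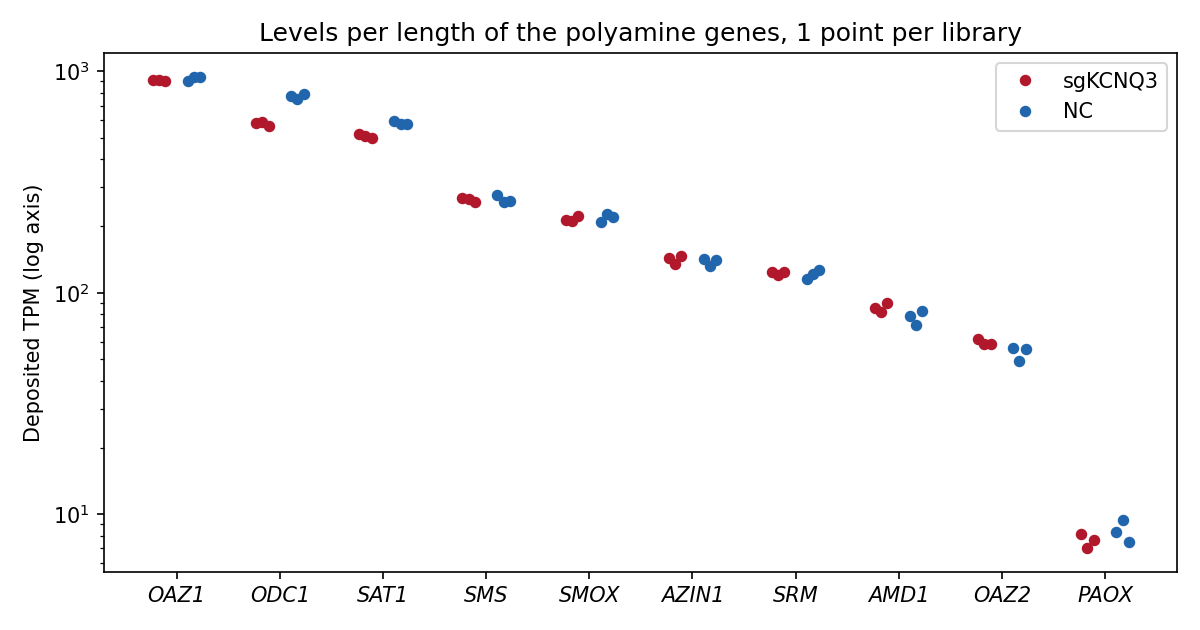
Deposited TPM of the 10 polyamine genes on a log axis, 1 point per library, sgKCNQ3 left of NC for each gene and genes ordered by their NC level. Mean levels in NC run from 930.8 TPM for OAZ1 to 8.38 TPM for PAOX, and the order is the same in both groups.

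Summed over the 10 genes, the polyamine set held 2919, 2898 and 2876 TPM in sgKCNQ3 libraries and 3153, 3140 and 3202 TPM in NC libraries. ODC1 made up 20.0%, 20.4% and 19.7% of that sum in sgKCNQ3, against 24.4%, 23.9% and 24.6% in NC. SAT1, SMOX and PAOX together summed to 734.2 ± 8.45 TPM in sgKCNQ3 and 809.6 ± 5.22 TPM in NC (SD, n = 3 each), and ODC1 relative to that catabolic sum was 0.791 ± 0.0185 in sgKCNQ3 and 0.95 ± 0.0304 in NC. The 10-gene sum includes ODC1, which averaged 580.5 TPM in sgKCNQ3 and 769.4 TPM in NC. That sum, the ODC1 share and the ratio to the catabolic sum all carry the lower ODC1 counts that chose the gene. None of them adds support to that difference. SAT1 relative to SMS was 1.94 ± 0.0159 in sgKCNQ3 and 2.21 ± 0.0598 in NC, with no overlap, and SMOX relative to OAZ1 was 0.237 ± 0.00863 in sgKCNQ3 and 0.234 ± 0.00439 in NC, with overlap. These are ratios of levels within a library; with 3 libraries against 3, an exact permutation test cannot go below 0.1, and none is given.

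The deposited counts and FPKM values (the authors' count per transcript length and library total) together imply the transcript length the authors used for each gene in each library. This readout is a length and not a level of RNA, but its precision falls at low counts. After each library's overall length offset was taken out, the ODC1 length was 2183.4, 2183.3 and 2183.0 bases in sgKCNQ3 and 2183.1, 2183.2 and 2182.8 bases in NC. The groups overlapped, and the estimated mix of ODC1 transcripts differed by no more than 0.6 bases in average length. OAZ1 did not vary to the decimal given, and AZIN1, OAZ2, AMD1 and SMS varied by 0.4 to 4.9 bases. SRM (12.3 bases), SAT1 (11.0), SMOX (10.2) and PAOX (47.8) varied more. Groups were apart without overlap for OAZ2 only, by -0.18 bases (0.15 bases when worked out from TPM), and 20.6% of 1821 abundant genes had no overlap. An equal average length does not show that the same transcripts were used.

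Around the core enzymes, 6 lists of pathway genes held 51 genes, of which 38 were tested. Of these, 6 were called higher and 6 lower, against 14.0% and 15.1% of all genes, with a median log2 fold change of -0.04. The same shares of all genes are the background for the count of each list below. ARG1, OTC, AGMAT and MTAP had no row under those names in the deposited table, so they could not be tested. Among the paralogs and side enzymes, AZIN2 and SAT2 were tested and neither was called by edgeR or DESeq2 (median -0.13). In edgeR 1 of them was lower at an unadjusted p under 0.05. The share of all genes at that threshold was not worked out, but it is at least the 29.1% called after adjustment. OAZ3, SATL1 and AOC1 were below the filter.

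Of 6 tested genes of ornithine and arginine supply, ARG2 fell and the rest were not called (median -0.03). ARG2, the mitochondrial arginase that yields ornithine, had 7.29, 7.03 and 7.13 CPM in sgKCNQ3, against 11.2, 10.04 and 9.40 CPM in NC, with a log2 fold change of -0.51 (SE 0.105, adjusted p = 6.75e-04 by edgeR). The most abundant gene of the list per length was SLC7A1, the main arginine importer, at 115.3 TPM in sgKCNQ3 and 114.3 TPM in NC. On counts its log2 fold change was -0.08, with no overlap of the groups in CPM, and it was not called (adjusted p = 0.0805 by edgeR). OAT, which can make or use ornithine, had no more than a single count in any library.

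The methionine cycle, which feeds the aminopropyl groups, had 2 of 9 tested genes higher and 1 lower (median 0.02). MAT2A, the enzyme that makes S-adenosylmethionine, rose to 270.8, 286.6 and 268.0 CPM in sgKCNQ3, against 230.4, 246.0 and 240.2 CPM in NC (log2 fold change 0.20, SE 0.0393, adjusted p = 3.64e-04 by edgeR). AHCY, which removes S-adenosylhomocysteine, fell (420 ± 16.8 CPM in sgKCNQ3 and 478 ± 11.0 CPM in NC; log2 fold change -0.19), but it was not called on log2(TPM + 1) (-0.10). MTR, methionine synthase, rose by 0.15 on the log2 scale; it was not called without sgKCNQ3 replicate 1 (0.13) or after removal of the length and GC trend (0.04).

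In polyamine transport, 1 of 7 tested genes rose and 1 fell (median -0.09). SLC3A2, the heavy chain of several amino acid transporters that has also been linked to polyamine export, had 353.1, 372.1 and 350.1 CPM in sgKCNQ3 and 461.5, 506.4 and 478.0 CPM in NC. The groups were well apart, with a log2 fold change of -0.43 (SE 0.0395, adjusted p = 1.30e-08 by edgeR). SLC18B1, a vesicular polyamine transporter, was called higher at 14.0 ± 1.94 CPM in sgKCNQ3 and 10.9 ± 1.34 CPM in NC (SD, n = 3 each), with a log2 fold change of 0.37 (SE 0.106), but its groups overlapped. The call was lost without NC replicate 2 (0.29) and without sgKCNQ3 replicate 1 (0.27), and with DESeq2 it missed the threshold at the same size of change (0.37). ATP13A3, a polyamine importer of the cell surface and endosomes, had 36.8 TPM in sgKCNQ3 and 32.3 TPM in NC. On counts its log2 fold change was 0.10 and it was not called. The list's count of called genes ranged from 1 to 4 over the alternatives, with 4 under library-size scaling or without sgKCNQ3 replicate 2 and 1 with DESeq2 or without NC replicate 2 or sgKCNQ3 replicate 1.

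Spermidine is the donor for hypusine, a modified lysine of the translation factor EIF5A. Of 5 tested genes in this pathway, DOHH, the hydroxylase of its final step, fell, and the others were not called (median -0.13). DOHH had 15.2, 15.7 and 15.1 CPM in sgKCNQ3 and 19.8, 20.2 and 18.5 CPM in NC, a log2 fold change of -0.35 (SE 0.077, adjusted p = 0.00138 by edgeR). EIF5A, more abundant per length than any polyamine member, stood at 1220 TPM in sgKCNQ3 and 1217 TPM in NC, with a log2 fold change of -0.07 on counts. DHPS, the enzyme of the first step, stood at 80.6 TPM in sgKCNQ3 and 80.8 TPM in NC, with a log2 fold change of -0.08 on counts. EIF5AL1 is nearly identical to EIF5A, so reads could be split between them, and its value is uncertain.

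The factors that act on E-boxes such as those printed for ODC1 and SRM split in direction: of 9 tested, 3 rose and 2 fell (median -0.04). Over all tested genes, 14.0% were called higher and 15.1% lower. MYC, the activator, had 539.7, 582.9 and 549.0 CPM in sgKCNQ3 and 605.1, 633.3 and 611.5 CPM in NC. It was below NC in every sgKCNQ3 library, with a log2 fold change of -0.15 (SE 0.0372, adjusted p = 0.00432 by edgeR), but it was not called without sgKCNQ3 replicate 1 (-0.12) or on log2(TPM + 1) (-0.06). MXD1, a repressor that competes for MAX, fell by 0.34 on the log2 scale (37.2 ± 2.98 CPM in sgKCNQ3 and 47.1 ± 1.89 CPM in NC). MXI1, another such repressor, rose by 0.47 (21.9 ± 1.29 CPM in sgKCNQ3 and 15.8 ± 1.0 CPM in NC; adjusted p = 7.05e-05 by edgeR). MXD4 and MGA, of the same MAX-binding group, rose by 0.23 and 0.28, and MGA was not called after removal of the length and GC trend (0.15). MAX, the shared partner, stood at 60.0 TPM in sgKCNQ3 and 58.2 TPM in NC. On counts its log2 fold change was -0.04, in the other direction, and it was not called.

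**Figure D4:**
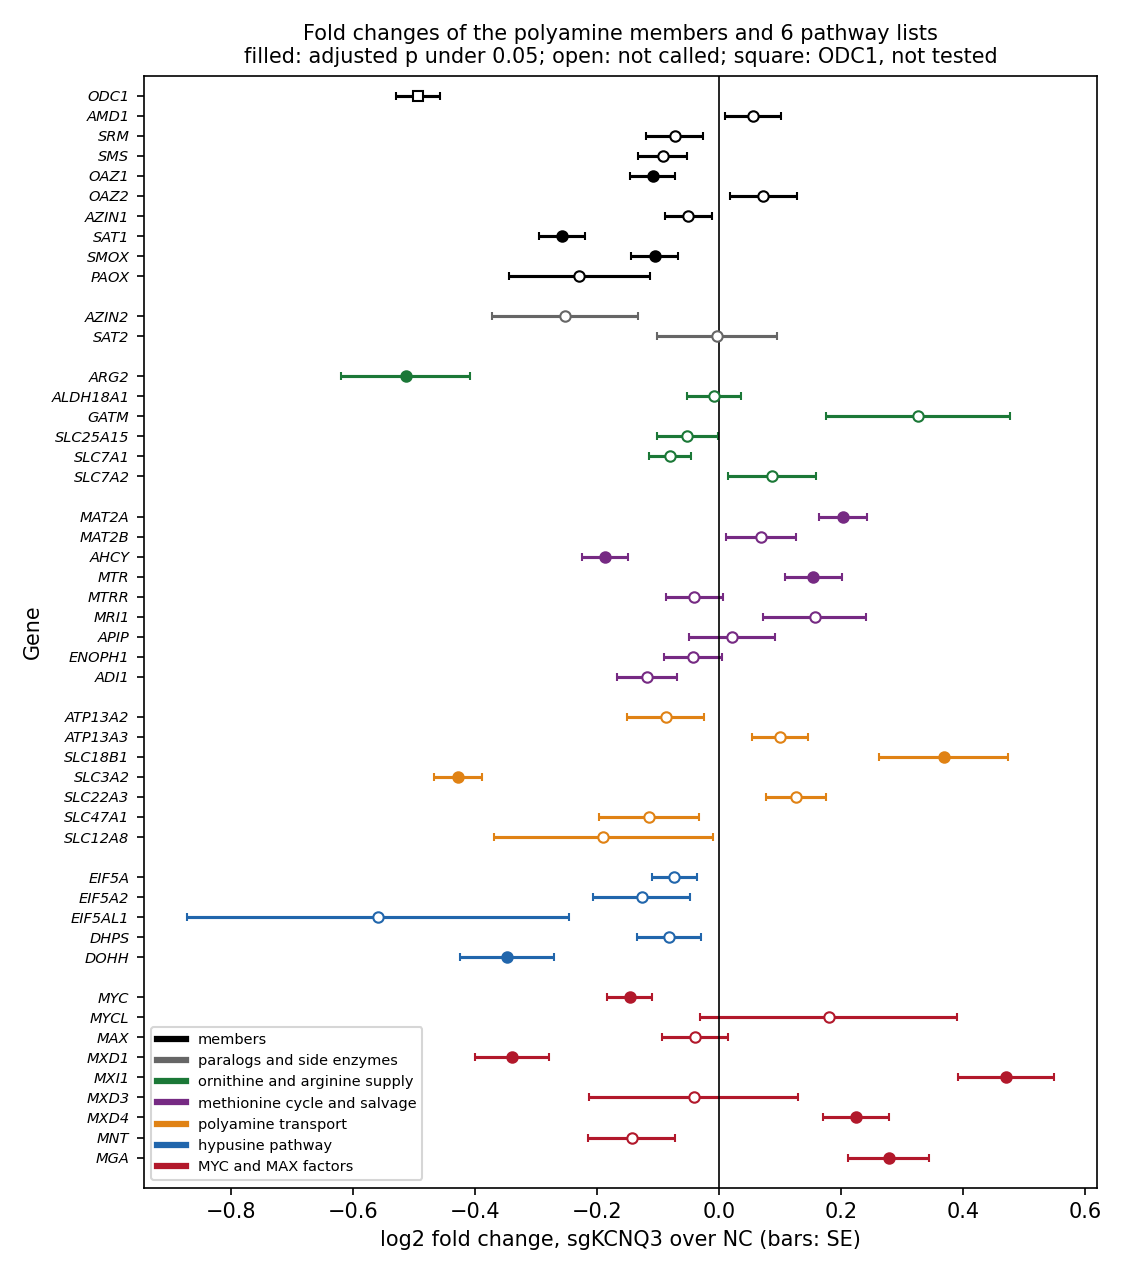
Log2 fold change (sgKCNQ3 over NC, bars are the SE) of the 10 polyamine genes and the 38 tested genes of 6 pathway lists; filled points have an adjusted p under 0.05 and ODC1 (square) was not tested. ODC1, ARG2 and SLC3A2 lie between -0.51 and -0.43, EIF5AL1, which was not called, is at -0.56 with a wide SE, most other genes lie within 0.2 of 0, and MXI1 is at 0.47.

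The genes whose profile over the 6 libraries was most like that of ODC1 were taken by the Euclidean distance between centred log2 CPM values, among tested genes whose log2 CPM averaged 2 or more. In order of distance they were UPP1, uridine phosphorylase (0.0788), ATF3, a stress-induced transcription factor (0.0913), TNFSF15, a TNF-family ligand (0.0934), MOK, a protein kinase (0.0946), and LIF, a cytokine of the interleukin-6 family (0.098). Their log2 fold changes, from -0.56 for TNFSF15 to -0.43 for MOK, are close to that of ODC1 because closeness chose them. UPP1 had 181.4, 197.5 and 178.6 CPM in sgKCNQ3 and 257.4, 260.6 and 257.1 CPM in NC. It shared its highest sgKCNQ3 library with ODC1, but its highest NC library, replicate 2, was the lowest for ODC1. LIF had 103.5, 103.2 and 104.9 CPM in sgKCNQ3 and 149.2, 144.8 and 150.1 CPM in NC. Like ODC1 it was highest in NC replicate 3, but its highest sgKCNQ3 library, replicate 3, was the lowest for ODC1. The other polyamine genes were left out of this search.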

How the data were processed

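Poly(A)-enriched RNA of 6 RBE libraries, 3 sgKCNQ3 and 3 NC, was analysed from the deposited table of 16200 genes, with groups and replicate numbers taken from the titles. The authors' estimated counts (expected counts) were not normalized, and 5.52% to 6.33% per library were not whole. Per the file headers, the authors' TPM and FPKM values are in further columns. A deposited signal column for every library, in which the counts are scaled by a constant, and columns of group means, including a deposited whole-number score, were not used. Per the submitters' processing notes, GRCh38.p13 was the build. Aligner, counter and strand setting: not given in the sources used here.

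After rounding, counts were analysed in R 4.3.3 by edgeR 4.0.16 (filterByExpr with a minimum count of 10, TMM factors, robust quasi-likelihood fits and F tests, Benjamini-Hochberg adjustment over 12565 tested genes, threshold 0.05); 3635 genes were removed as too low. The biological coefficient of variation was 3.62%. The procedure was tested on simulated counts with 1 common dispersion for all genes. It recovered 25 of 50 genes changed by 0.25 on the log2 scale, 43 of 50 at 0.5, 48 of 50 at 1 and 50 of 50 at 2. Of its 174 calls, 8 were false. Changes of 0.25 were thus often missed in that setting. The SE is the log2 fold change divided by the square root of F. Alternatives were library-size, upper-quartile and RLE scaling, limma-voom and, on log2(TPM + 1), limma-trend (limma 3.58.1), DESeq2 1.42.0, no filter or a filter of 2 CPM or more in 3 libraries, a replicate block, removal of the trend with transcript length and GC content per library (splines with 5 degrees of freedom, GENCODE release 29, 16032 genes), and leaving out each library. The implied length is the count divided by FPKM and by the library's total. It is given after subtracting each library's median offset from NC replicate 2 over genes of at least 50 FPKM.

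The members and pathway lists were chosen with earlier results of these data known. Named genes are the members, KCNQ3, called genes of the lists and some uncalled list genes by level, and the 5 genes nearest to ODC1. Counting error and the number of libraries limit precision. Figures used matplotlib 3.10.9.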

Additional observations from a re-analysis of the deposited data

How the results depend on the processing

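ODC1 kept its direction under all 16 alternatives, between -0.514 and, on log2(TPM + 1), -0.406 on the log2 scale. ODC1 was picked for evenly lower counts in these same libraries, so its kept direction adds no support to its difference. SAT1 kept its direction and call in all 16 alternatives. The number of genes called was 2322 with DESeq2 (1111 higher and 1211 lower), and 613 were called lower on log2(TPM + 1), where the median over all genes moved by 0.07; no scaling moved it by over 0.1. OAZ1 was not called with upper-quartile (-0.089) or library-size scaling (-0.072), on log2(TPM + 1) (-0.032) or after removal of the length and GC trend (-0.026). SMOX was not called with RLE (-0.10), upper-quartile (-0.086) or library-size scaling (-0.069), DESeq2 (-0.101), log2(TPM + 1) (-0.015) or the length and GC trend removed (-0.021). AZIN1 was 0.04 on log2(TPM + 1) and was called at -0.096 with the length and GC trend removed; SRM was 0.017 and 0.047 in those settings. Members other than ODC1 called numbered 1 with upper-quartile or library-size scaling and on log2(TPM + 1). Ornithine and arginine supply had 2 called genes on log2(TPM + 1) and with the trend removed, the hypusine pathway had 2 with the trend removed, and transport had 4 with library-size scaling and 1 with DESeq2. The OAZ2 length difference was 0.15 bases from TPM. The causes were not tested.

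Leaving out 1 library at a time gave 2687 to 3471 called genes, 1 to 3 called members other than ODC1, 1 to 2 called genes for ornithine supply and for hypusine, and 1 to 4 for transport. Log2 fold changes then ran from -0.51 to -0.46 for ODC1, -0.132 to -0.087 for OAZ1, -0.111 to -0.055 for SMS, -0.134 to -0.075 for SMOX and -0.27 to -0.23 for SAT1. They ran from 0.001 to 0.1 for AMD1, 0.011 to 0.109 for OAZ2, -0.082 to -0.022 for AZIN1, -0.104 to -0.048 for SRM and -0.314 to -0.126 for PAOX, none of them called in these settings. Same-numbered libraries did not deviate together (correlations of 0.0136, -0.0977 and 0.00776), so the replicate numbers were not taken to pair the samples. With the replicate block 3136 genes were called and SMOX, at -0.105, was not (adjusted p = 0.0586); OAZ1 and SAT1 kept their calls. Among the members depth limits PAOX most; EIF5AL1, MYCL and SLC12A8 had fewer counts and larger SEs.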
